A study of Mus musculus with 16 samples.

Results

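The mouse genes that encode a TLDc domain are Tldc2, Tldc1 (listed under its current symbol Meak7), Ncoa7, Oxr1 and Tbc1d24, and all 5 were measured, each by 1 probe set, among 22180 genes. Tldc2 was chosen by its measured log2 levels, which are low in both groups that lack Vhl and high in both that keep it, so its values are given as a description with no test. The other 4 genes share the domain, played no part in that choice and were tested in every comparison. Kidney cortex was taken at 3 months of age from mice on a normal diet, and its RNA was hybridised to 16 Affymetrix arrays, 4 per group. The double mutants (VhlF/FPbrm1F/FKsp-Cre) carry floxed alleles of both genes and Ksp-Cre, the Vhl mutants (VhlF/FKsp-Cre) and the Pbrm1 mutants (Pbrm1F/FKsp-Cre) carry 1 floxed gene each with Ksp-Cre, and the wild-type mice carry none. Ksp-Cre is under the control of the Cdh16 promoter (Cdh16 is a cadherin made in kidney tubules), so other cells of the cortex keep both genes. The Vhl protein targets hypoxia-inducible transcription factors for destruction, and the Pbrm1 protein belongs to a SWI/SNF complex that remodels chromatin. Wild-type mice were C57BL/6 by the labels, while every mutant had a mixed background of C57BL/6, BALB/c and 129, so strain and mutation cannot be told apart in any comparison with wild type. Levels are the deposited log2 values from robust multi-array averaging (RMA), with array medians of 5.18 to 5.27. Nothing in the labels ties the 4 arrays of a group to separate animals, so the p-values reflect only array-to-array spread, part of which may be technical. Arrays of a group share numbers in their descriptions. If such a number marks an animal, which the labels do not say, a group holds fewer animals than arrays. The p-values may then be too small. Throughout, n counts arrays.

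The TLDc domain binds the vacuolar proton pump (V-ATPase), which acidifies lysosomes and other compartments and, in the intercalated cells of the kidney collecting duct, pumps acid into the urine. Several proteins of the family can take the assembled pump apart into its membrane part and its cytosolic part, which switches it off. Ncoa7 is abundant in kidney, where its product binds the pump, and a short form that begins at a start site inside the gene is induced by interferon. Oxr1 protects cells against oxidative damage, and its yeast relative disassembles the pump. Tbc1d24 combines the domain with a TBC domain and acts at synapses, and the human counterpart of Meak7 sits on lysosomes and takes part in mTOR signalling.

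Promoter windows of 250 bases before to 50 after an annotated start were available for Tldc2, Ncoa7 and Tbc1d24 in RefSeq (GRCm38.p6). Each was searched on both strands for the core of the hypoxia response element (ACGTG or GCGTG), which hypoxia-inducible factors bind, and for the interferon-stimulated response element (GAAA, any 2 bases, then GAAAC). The 3 windows printed show Tldc2 itself, Egln3, the gene whose levels ran most opposite to it (below), and the internal start of Ncoa7. Capitals mark the hypoxia core in Egln3 and the interferon element in Ncoa7.
Tldc2, chr2:157086760-157087059, plus strand: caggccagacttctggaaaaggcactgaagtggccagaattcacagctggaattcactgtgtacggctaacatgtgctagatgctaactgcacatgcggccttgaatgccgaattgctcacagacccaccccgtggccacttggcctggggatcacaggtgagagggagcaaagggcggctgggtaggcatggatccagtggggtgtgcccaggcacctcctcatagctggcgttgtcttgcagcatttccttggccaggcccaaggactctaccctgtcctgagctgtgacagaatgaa
Egln3, chr12:54203825-54204124, minus strand: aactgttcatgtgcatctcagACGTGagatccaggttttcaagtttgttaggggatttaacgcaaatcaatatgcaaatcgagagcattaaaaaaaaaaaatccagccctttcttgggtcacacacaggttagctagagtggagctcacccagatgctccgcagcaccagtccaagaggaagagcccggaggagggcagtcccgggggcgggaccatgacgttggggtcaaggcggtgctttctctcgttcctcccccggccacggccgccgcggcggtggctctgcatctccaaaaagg
Ncoa7 internal start, chr10:30655818-30656117, minus strand: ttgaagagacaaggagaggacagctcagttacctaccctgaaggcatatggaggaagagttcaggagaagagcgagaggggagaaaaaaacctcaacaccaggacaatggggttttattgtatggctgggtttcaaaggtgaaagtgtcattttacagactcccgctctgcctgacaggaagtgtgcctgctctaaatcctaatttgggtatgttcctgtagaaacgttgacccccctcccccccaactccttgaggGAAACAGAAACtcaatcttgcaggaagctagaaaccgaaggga

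The Tldc2 window lies inside the annotated RefSeq span of the gene, which begins further upstream, and no window was available at that outer start. It holds 0 matches to the hypoxia core, and the Egln3 window holds 1, at bases 22 to 26 of the window. The core is short: 43.8% of 32851 promoter windows of this length hold at least 1 match. The internal start of Ncoa7 holds 1 interferon element at bases 258 to 268, just past the start site. The other Ncoa7 window, which lies further upstream, holds none. It too lies inside the annotated span, and no window was available at the outer start of Ncoa7. The interferon element occurs in 0.819% of windows. Of the windows at 2 starts of Tbc1d24, 1 holds 4 hypoxia core matches, of which 2 overlap on opposite strands, and the other holds none. A match is a description of the letters and not a measured binding site, and the absence of one concerns these windows only.

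Tldc2 was low in every array that lacks Vhl and high in every array that keeps it. In double mutants its log2 level was 6.75, 6.77, 6.88 and 6.79, and in Vhl mutants 6.82, 7.06, 6.82 and 7.04. It was 8.58, 8.65, 8.09 and 8.17 in Pbrm1 mutants and 8.39, 8.28, 8.53 and 8.68 in wild-type mice. The highest of the 8 arrays without Vhl thus lay more than 1 log2 unit below the lowest of the 8 arrays with it, a gap of 1.03, while the groups on each side of the gap overlapped. Tldc2 was 3.19-fold lower in double mutants than in wild-type mice (fitted log2 difference -1.67 ± 0.12, SE) and 2.9-fold lower in Vhl mutants than in wild-type mice (-1.54 ± 0.11). Against Pbrm1 mutants the difference was -1.58 ± 0.12 in double mutants and -1.44 ± 0.11 in Vhl mutants. Groups that do not overlap occurred for 17.7% of all genes between double mutants and wild-type mice, 10.8% between Vhl mutants and wild-type mice, 17.5% between double and Pbrm1 mutants, and 13.8% between Vhl and Pbrm1 mutants. Only 4 of 22180 genes had a more negative difference than Tldc2 in Vhl mutants against wild type, and 13 did in double mutants against wild type. These comparisons share arrays, and they are the ones for which Tldc2 was chosen.

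**Figure D1:**
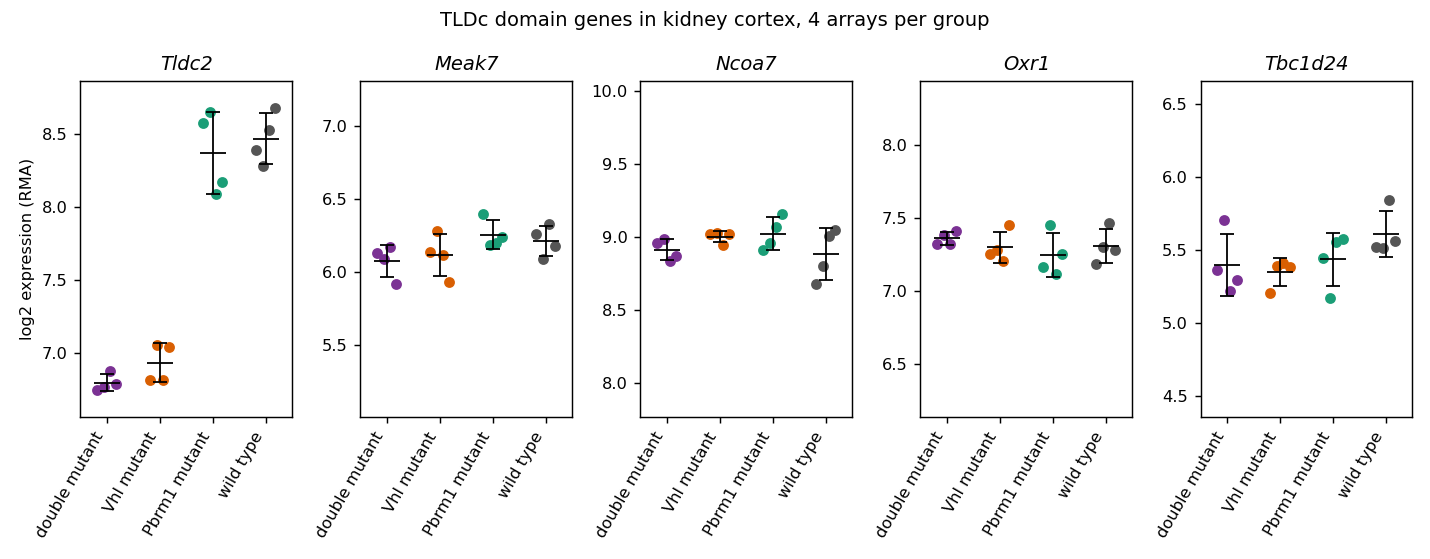
Log2 expression of the 5 TLDc domain genes (vertical axes, each spanning the same number of log2 units around that gene's own range) in double mutants, Vhl mutants, Pbrm1 mutants and wild-type mice. Points are single arrays, 4 per group, and bars are the mean ± SD. Tldc2 lies between 6.75 and 7.06 in the 8 arrays without Vhl and between 8.09 and 8.68 in the 8 arrays with it, while the group means of each other gene lie within 0.26 of each other.

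With and without Pbrm1 the groups lay close together, which the choice of Tldc2 over the 4 groups partly fixed. Pbrm1 mutants averaged 8.38 ± 0.28 and wild-type mice 8.47 ± 0.17 (log2, SD, n = 4 each), a fitted difference of -0.09 ± 0.11 (SE). Double mutants averaged 6.80 ± 0.06 and Vhl mutants 6.93 ± 0.13 (SD, n = 4 each), a fitted difference of -0.14 ± 0.12. In both pairs the groups overlapped. The interaction, meaning what the double mutants show beyond the added effects of both single mutants, was -0.04 ± 0.16 for Tldc2.

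Within 2 groups the Tldc2 arrays fell into pairs. Each array carries a number in its description that most often 2 arrays of a group share, and the labels do not say what it marks. Pbrm1 mutant replicates 1 and 2 share a number and averaged 8.62, and replicates 3 and 4 share another and averaged 8.13. Wild-type replicates 1 and 2 averaged 8.33, and replicates 3 and 4 averaged 8.61. In Vhl mutants the pairs with 1 number averaged 6.94 and 6.93, and there the spread ran between the letters of the descriptions: the arrays marked R read 7.06 and 7.04 and those marked L both read 6.82. The adipocyte marker list was highest in Pbrm1 mutant replicate 3 (mean log2 level 6.21), the array with the lowest Tldc2 among those with Vhl. In Pbrm1 mutant replicate 4, where Tldc2 read 8.17, the list was lowest of all arrays (4.71). Double mutant replicate 3 (5.72) and Vhl mutant replicate 2 (5.45), also high in the list, had the highest Tldc2 of their groups (6.88 and 7.06). The part of numbers, letters and adipocyte markers in these levels was not tested. Without Pbrm1 mutant replicates 3 and 4, Pbrm1 mutants exceeded wild-type mice by 0.15, and the Tldc2 difference was -1.82 for double mutants and -1.68 for Vhl mutants against Pbrm1 mutants. Leaving out any single array kept the difference from wild type between -1.73 and -1.60 in double mutants and between -1.60 and -1.47 in Vhl mutants.

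None of the other 4 genes passed the test in any comparison. Across 7 comparisons they gave 28 tests, of which 0 reached a limma adjusted p under 0.05 and 2 an unadjusted p under 0.05, and the lowest adjusted p was 0.27. Of all genes, 12.2% were called in double mutants against wild type, 3.84% in Vhl mutants against wild type and 4.04% in Pbrm1 mutants against wild type. The share was 6.35% for double against Vhl mutants, 10.2% for double against Pbrm1 mutants, 7.47% for Vhl against Pbrm1 mutants and 2.63% for the interaction. The largest fitted difference of the 4 genes was 0.26 log2 units in size. Their 95% intervals reached -0.52 and 0.58 at the widest.

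**Figure D2:**
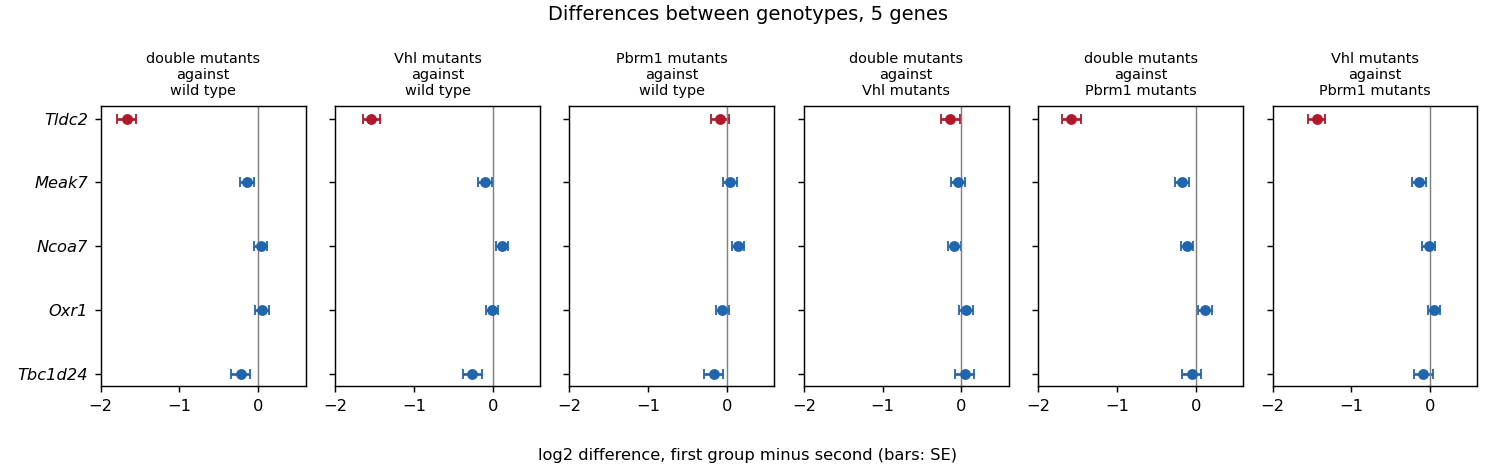
Fitted log2 difference ± SE of the 5 genes in the 6 comparisons between groups, first-named group minus second, with 4 arrays per group and a line at 0. Tldc2 lies at -1.67, -1.54, -1.58 and -1.44 in the comparisons that involve Vhl loss, and every other point lies between -0.26 and 0.14.

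Meak7 had log2 levels of 6.13, 6.09, 6.17 and 5.92 in double mutants, 6.14, 6.28, 6.12 and 5.93 in Vhl mutants, 6.40, 6.19, 6.20 and 6.24 in Pbrm1 mutants, and 6.26, 6.09, 6.33 and 6.18 in wild-type mice. Every double mutant array lay below every Pbrm1 mutant array, by a gap of 0.01, where 17.5% of all genes had groups that do not overlap. The difference was -0.18 ± 0.09 (95% interval -0.38 to 0.01, limma adjusted p = 0.27). Against wild type the difference was -0.14 ± 0.09 in double mutants, -0.10 ± 0.09 in Vhl mutants and 0.04 ± 0.09 in Pbrm1 mutants, with adjusted p-values of 0.41, 0.67 and 0.89. In the order of its 4 group means no neighbours differed beyond the spread between arrays.

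Ncoa7 had a mean level of 8.92 ± 0.07 in double mutants, 9.01 ± 0.04 in Vhl mutants and 9.03 ± 0.11 in Pbrm1 mutants, against 8.89 ± 0.17 in wild-type mice (log2, SD, n = 4 each). All groups overlapped. The single mutants were higher than wild-type mice by 0.12 ± 0.08 (Vhl) and 0.14 ± 0.08 (Pbrm1), and double mutants by 0.03 ± 0.08, with limma adjusted p-values of 0.49, 0.40 and 0.89. The interaction was -0.23 ± 0.11 (unadjusted p = 0.049, adjusted p = 0.31). The wild-type group is itself split for this gene, since replicates 1 and 2 averaged 8.74 and replicates 3 and 4 averaged 9.03. The array has 1 named probe set for the gene, and which of its starts that probe set reads is not given in the sources used here.

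Oxr1 was the flattest of the 4 against wild type. Its mean was 7.36 ± 0.04 in double mutants, 7.30 ± 0.11 in Vhl mutants and 7.24 ± 0.15 in Pbrm1 mutants, against 7.31 ± 0.12 in wild-type mice (log2, SD, n = 4 each). The difference from wild type was 0.05 ± 0.09, -0.01 ± 0.08 and -0.06 ± 0.08 in double, Vhl and Pbrm1 mutants, with limma adjusted p-values of 0.79, 0.98 and 0.81. Over the 7 comparisons its differences lay between -0.06 and 0.12.

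Tbc1d24 had log2 levels of 5.36, 5.70, 5.22 and 5.29 in double mutants, 5.20, 5.39, 5.41 and 5.38 in Vhl mutants, 5.44, 5.17, 5.55 and 5.57 in Pbrm1 mutants, and 5.52, 5.51, 5.84 and 5.56 in wild-type mice. All 3 mutant means lay below the wild-type mean, by -0.22 ± 0.12 in double mutants, -0.26 ± 0.12 in Vhl mutants and -0.17 ± 0.12 in Pbrm1 mutants (SE; limma adjusted p = 0.32, 0.29 and 0.56). Vhl mutants and wild-type mice did not overlap, with a gap of 0.09, where 10.8% of all genes behaved so. The unadjusted p of that difference was 0.046. It is the only comparison with wild type in which one of these 4 genes had groups that do not overlap, and of 24 group pairs over the 4 genes 2 did.

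The V-ATPase, to which the family binds, was described through a list of 25 subunit and accessory genes, of which 24 were measured. Subunits fell and 0 rose in the comparisons with wild type: 9 of 24 fell in double mutants, 3 in Vhl mutants and 1 in Pbrm1 mutants, at limma adjusted p under 0.05. Among all genes 5.56%, 1.79% and 2.45% fell in those comparisons. The median log2 difference of the list was -0.14 in double mutants, -0.08 in Vhl mutants and -0.03 in Pbrm1 mutants, beside -0.021, -0.009 and -0.005 over all genes. The direction of calls in Vhl mutants against wild type depends on scaling, with 398 genes lower and 453 higher as deposited and 622 lower and 355 higher when each array is centred on its median. The centred values gave 5 subunits lower in Vhl mutants against wild type. Centring also turned the balance in double mutants against wild type, from 1233 lower and 1473 higher to 1404 and 1236. In Vhl against Pbrm1 mutants it went from 611 lower and 1045 higher to 1017 and 788. In the other comparisons between groups the larger side stayed the same.

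The subunits that fell most are forms enriched in intercalated cells. Atp6v1b1, the B1 subunit of the cytosolic part, had a mean of 8.26 ± 0.05 in double mutants, 8.68 ± 0.17 in Vhl mutants and 8.97 ± 0.09 in Pbrm1 mutants, against 9.30 ± 0.08 in wild-type mice (log2, SD, n = 4 each), and no mutant group overlapped the wild-type range of 9.21 to 9.38. Its difference from wild type was -1.04 ± 0.08 in double mutants (limma adjusted p = 1.6e-08), -0.62 ± 0.08 in Vhl mutants (8.4e-05) and -0.33 ± 0.08 in Pbrm1 mutants (0.019). The call in Pbrm1 mutants was lost in 8 of 30 alternatives, among them leaving out wild-type replicate 1 (0.057) or 3 (0.053) or Pbrm1 mutant replicate 2 (0.058) or 3 (0.061). Atp6v1b1 was lower in double mutants than in Vhl mutants as well, with a difference of -0.42 ± 0.08 (adjusted p = 0.0020). Atp6v1c2, the C2 subunit, was 1.70-fold lower in double mutants (-0.76 ± 0.09, adjusted p = 7.7e-06) and 1.56-fold lower in Vhl mutants (-0.64 ± 0.09, adjusted p = 0.00027) than in wild-type mice. Atp6v1g3 and Atp6v0d2, the G3 and d2 subunits, both fell by 0.68 in double mutants against wild type (adjusted p = 2.8e-05 and 0.0001). In Vhl mutants their differences were -0.30 ± 0.09 (0.075) and -0.35 ± 0.10 (0.055).

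Some widely expressed subunits also moved. Atp6v1e1, the E1 subunit, fell by 0.45 in double mutants (limma adjusted p = 2e-05) and by 0.27 in Vhl mutants (adjusted p = 0.011, lost in 3 of 30 alternatives) against wild type. Atp6v1d, Atp6v0b, Atp6v1b2 and Atp6v0d1 differed by -0.41, -0.32, -0.29 and -0.25 in double mutants and passed the same test. The catalytic subunit Atp6v1a differed by -0.07 ± 0.07 (adjusted p = 0.65) and the intercalated cell form Atp6v0a4 by 0.04 ± 0.08 (0.84). Between the mutant groups, 3 subunits were lower in double than in Vhl mutants, 7 in double than in Pbrm1 mutants and 2 in Vhl than in Pbrm1 mutants, where 2.55%, 3.37% and 2.75% of all genes were lower. The count of 3 was 1 without double mutant replicate 4 and 5 without Vhl mutant replicate 1 or 3. The count of 2 was 1 without Pbrm1 mutant replicate 1 or 4 or Vhl mutant replicate 1, 3 or 4. No subunit was called for the interaction. Of 4 genes of the RAVE complex, which reassembles the pump, only Wdr7 was called, which fell by 0.23 in double mutants and fell by 0.27 in Vhl mutants against wild type (adjusted p = 0.041 and 0.034), and these calls were lost in 14 and 12 of 30 alternatives.

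**Figure D3:**
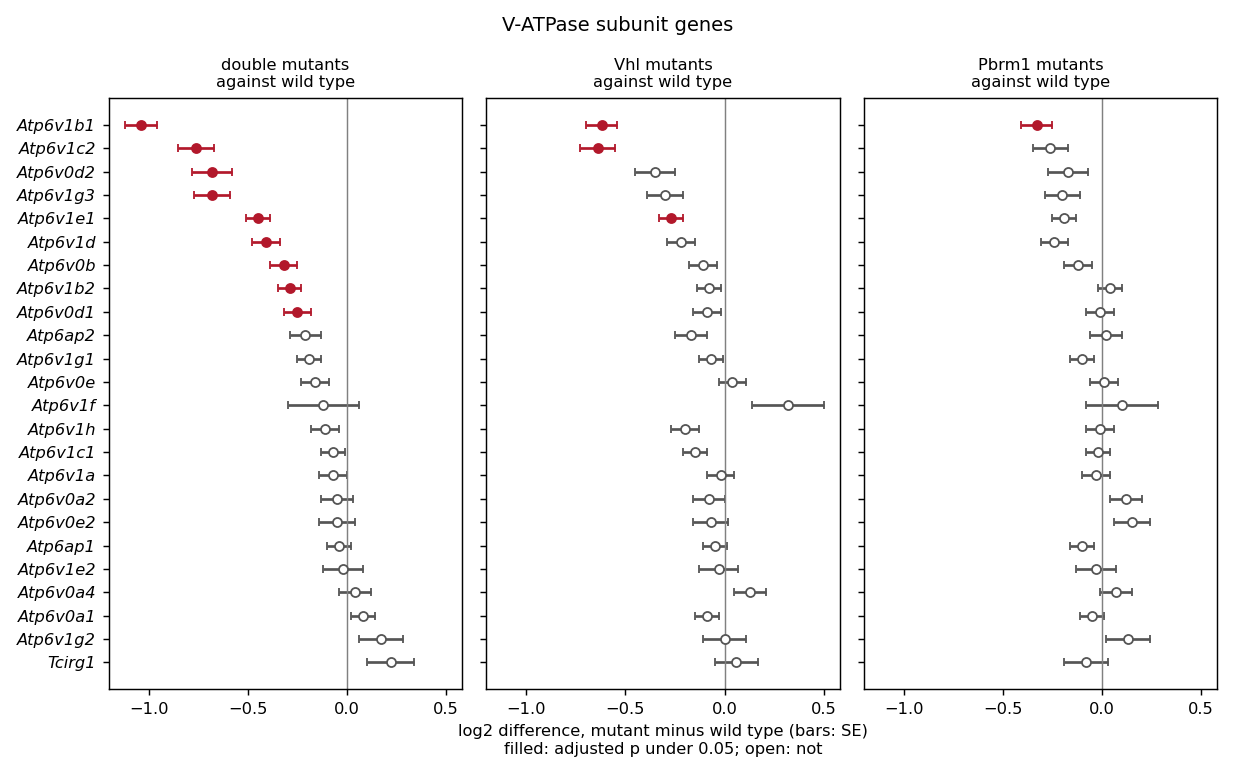
Log2 difference ± SE of 24 V-ATPase subunit genes against wild type in double mutants, Vhl mutants and Pbrm1 mutants (4 arrays per group), ordered by the difference in double mutants. Filled points passed a limma adjusted p of 0.05 and open points did not, with 9, 3 and 1 filled points, all below 0.

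Markers of intercalated cells fell in the same mutants. Of 9 markers, all measured, 7 fell in double mutants, 5 in Vhl mutants and 1, Rhcg, in Pbrm1 mutants against wild type, and 0 rose, where 5.56%, 1.79% and 2.45% of all genes fell. The mean of the list per array was 6.78 to 6.89 in double mutants, 6.94 to 7.28 in Vhl mutants, 7.34 to 7.58 in Pbrm1 mutants and 7.54 to 7.67 in wild-type mice. Its group means ran in the same order as those of Tldc2. So did those of the V-ATPase list, which includes forms enriched in intercalated cells, and of the principal cell markers below. In the principal cell list the ranges of Vhl mutants, Pbrm1 mutants and wild-type mice overlapped. What the shared order reflects was not tested. For Tldc2 the order includes steps between groups that overlap. Rhcg, an ammonia transporter, was 3.13-fold lower in double mutants (-1.65 ± 0.08, limma adjusted p = 1.1e-10) and 1.67-fold lower in Vhl mutants (-0.74 ± 0.08, adjusted p = 2.3e-05) than in wild-type mice. Slc26a4, the chloride and bicarbonate exchanger pendrin, was 2.40-fold lower in double mutants and 1.81-fold lower in Vhl mutants. Foxi1, the transcription factor of intercalated cells, was 0.49 ± 0.11 higher in double than in Vhl mutants (adjusted p = 0.011). Its double mutant mean (8.20 ± 0.29) lay near the wild-type mean (8.27 ± 0.09, log2, SD, n = 4 each). The Pbrm1 mutant mean was 8.30 ± 0.07, and the lowest was that of the Vhl mutants (7.71 ± 0.16). Foxi1 thus did not follow the order of the list means. In whole cortex, fewer cells of a type and less RNA per cell cannot be told apart, and the part of the intercalated cell markers in the level of Tldc2 was not tested. Principal cell markers had list means of 7.79 to 7.89 in double mutants, 8.03 to 8.25 in Vhl mutants, 8.14 to 8.36 in Pbrm1 mutants and 8.24 to 8.33 in wild-type mice. Of these 6 markers 4 fell in double mutants, 1 in Vhl mutants and 0 in Pbrm1 mutants against wild type, and 0 rose. Markers of the proximal tubule, which define cortex, were high throughout, with list means of 11.65 to 11.77 in double mutants, 11.72 to 11.88 in Vhl mutants and 11.87 to 11.94 in Pbrm1 mutants, against 11.83 to 11.89 in wild-type mice. Against wild type 4 of these 10 markers fell and 1 rose in double mutants, 1 fell in Vhl mutants and 2 rose in Pbrm1 mutants. Among all genes 5.56% fell and 6.64% rose in double mutants, 1.79% fell in Vhl mutants and 1.59% rose in Pbrm1 mutants.

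Macrophage and endothelial markers moved the opposite way to Tldc2. Macrophage markers had list means of 6.57 to 6.84 in double mutants and 6.46 to 6.87 in Vhl mutants, against 5.82 to 5.91 in Pbrm1 mutants and 5.87 to 6.10 in wild-type mice. For endothelial markers the ranges were 8.57 to 8.78 in double mutants, 8.73 to 8.90 in Vhl mutants, 8.11 to 8.32 in Pbrm1 mutants and 8.36 to 8.46 in wild-type mice. Of 14 macrophage markers 8 rose in double mutants and 11 in Vhl mutants against wild type, and of 8 endothelial markers 4 and 5 did, where 6.64% of all genes rose in double mutants and 2.04% in Vhl mutants. The list means of other tubule segments followed neither pattern, though some of their markers were called. The thick ascending limb list averaged 9.59 in double, 9.21 in Vhl and 9.41 in Pbrm1 mutants, against 9.45 in wild-type mice. For the distal convoluted tubule list these means were 8.09, 8.39, 8.19 and 8.44. Against wild type, 2 of 5 measured thick ascending limb markers rose and 1 fell in double mutants, and 1 fell in Vhl mutants. Of 4 distal convoluted tubule markers 2 fell in double mutants, 0 in Vhl mutants and 2 in Pbrm1 mutants. Among all genes 5.56% fell and 6.64% rose in double mutants, while 1.79% fell in Vhl mutants and 2.45% in Pbrm1 mutants. The adipocyte list was high in Pbrm1 mutant replicate 3, double mutant replicate 3 (5.72) and Vhl mutant replicate 2 (5.45). Without these 3 arrays the Tldc2 difference from wild type was -1.70 in double mutants and -1.58 in Vhl mutants. None of 3 red blood cell markers was measured. The probe sets of Vhl (6.08 to 6.55) and Pbrm1 (8.02 to 8.33) differed in no comparison, with lowest limma adjusted p-values of 0.55 and 0.61. Which exons they read is not given in the sources used here, so they do not check the deletions.

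Ranked by Pearson correlation over 16 arrays, among 16911 genes whose mean passed the lower quartile of the arrays in at least 1 group, the genes most like Tldc2 were Slc26a4 (r = 0.95), Slc4a9, Kcne1, Tmem117, Bsnd and Atp6v1c2 (r = 0.93 each). Slc26a4 and Slc4a9 carry anions in intercalated cells, Kcne1 is a potassium channel subunit, Bsnd is a subunit of kidney chloride channels, and Tmem117 is a membrane protein. The most opposite were Egln3 (r = -0.99), Slc16a3 (-0.98), Hk2 (-0.97) and Fli1 (-0.97). Egln3, a prolyl hydroxylase and known target of hypoxia-inducible factors, stood at 8.80 to 8.98 in double mutants, 8.52 to 8.76 in Vhl mutants, 6.30 to 7.06 in Pbrm1 mutants and 6.10 to 6.70 in wild-type mice. Slc16a3 exports lactate, Hk2 starts glycolysis, and Fli1 is a transcription factor of endothelial and blood cells. The arrays fall into a set without Vhl and a set with it, so these coefficients mostly restate that gap and carry no p-value. Within groups, after each group mean was subtracted, the coefficient among the like genes was 0.64 for Slc26a4, 0.51 for Slc4a9 and Atp6v1c2, 0.45 for Tmem117, 0.43 for Kcne1 and -0.10 for Bsnd. Among the opposite genes it was -0.81 for Egln3, -0.47 for Fli1, -0.41 for Slc16a3 and -0.14 for Hk2. The genes were picked by coefficients over these same arrays, which include the spread within groups. The within-group values are therefore a description that is not independent of the choice. Arrays that share a description number may also not be independent. Of the other family members, Meak7 had r = 0.59 with Tldc2 (rank 1049), Tbc1d24 0.38, Ncoa7 -0.03 and Oxr1 -0.16.

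**Figure D4:**
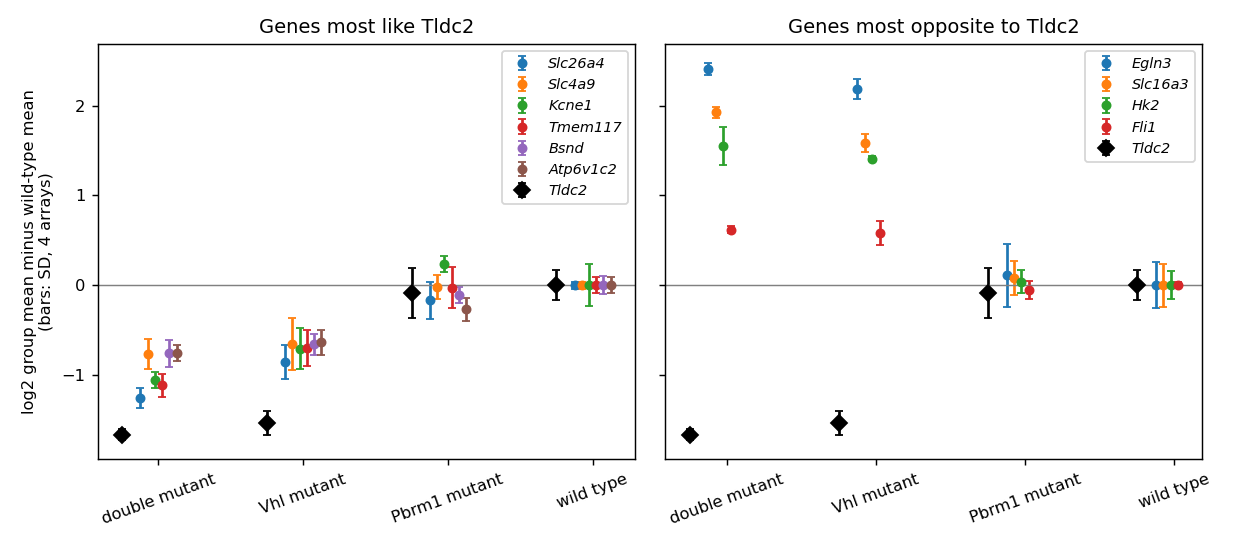
Group mean minus wild-type mean (log2, bars SD over 4 arrays) of Tldc2 (black diamonds) with the 6 genes most like it (left) and the 4 most opposite to it (right) over 16 arrays, in double mutants, Vhl mutants, Pbrm1 mutants and wild-type mice. Tldc2 is lowest in the left panel in both groups without Vhl, at -1.67 and -1.54 by the fit, and Egln3 is highest in the right panel, at 2.41 and 2.19.

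The promoter windows of those genes were searched in the same way. The table holds windows for 3 of the 6 like genes and 3 of the 4 opposite genes. All 3 opposite genes (Egln3, Slc16a3 and Hk2) hold a hypoxia core match, as do 2 of the 3 like genes (Tmem117 and Atp6v1c2, with none in Slc26a4), where 43.8% of all windows do.

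None of the 6 measured genes closest to Tldc2 on chromosome 2 had a difference near the size of that of Tldc2. In RefSeq order the 3 measured on one side were Ndrg3, Dsn1 and Soga1, and on the other Samhd1, Rbl1 and Mroh8. The annotated spans of Soga1 and Tldc2 overlap at their ends, and Soga1 differed from wild type by 0.10 ± 0.10 in double mutants and 0.04 ± 0.09 in Vhl mutants (limma adjusted p = 0.62 and 0.89). Samhd1, which encodes a nucleotide hydrolase that restricts viruses, moved the other way: it averaged 8.16 ± 0.01 in double mutants, 8.07 ± 0.08 in Vhl mutants and 7.53 ± 0.13 in Pbrm1 mutants, against 7.79 ± 0.05 in wild-type mice (log2, SD, n = 4 each). It rose by 0.37 ± 0.07 in double mutants against wild type (adjusted p = 0.0012), and against Pbrm1 mutants by 0.62 ± 0.07 in double mutants (3.5e-06) and 0.54 ± 0.07 in Vhl mutants (3.2e-05). Its differences of 0.28 in Vhl mutants (adjusted p = 0.028) and -0.25 in Pbrm1 mutants (0.045) from wild type were lost in 11 and 21 of 30 alternatives, with adjusted p-values up to 0.14 and 0.22. Ndrg3 differed by -0.22 ± 0.06 in double mutants from wild-type mice (adjusted p = 0.018), a call lost in 5 of 30 alternatives with adjusted p-values up to 0.14, among them leaving out double mutant replicate 4 (0.081). In Vhl mutants it differed by -0.13 ± 0.06 from wild-type mice (adjusted p = 0.26). Dsn1, Soga1, Rbl1 and Mroh8 were not called in any of the 7 comparisons.

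**Figure D5:**
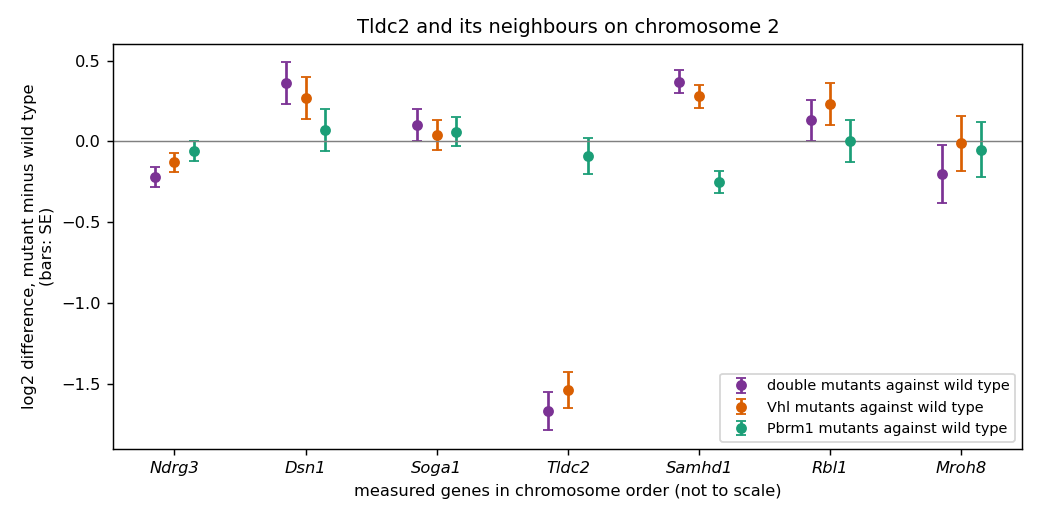
Log2 difference ± SE against wild type of Tldc2 and the 3 measured genes on either side of it, in chromosome order and not to scale, in double mutants, Vhl mutants and Pbrm1 mutants (4 arrays per group). Tldc2 lies at -1.67 and -1.54 in double and Vhl mutants, while its neighbours lie between -0.25 and 0.37 in all 3 comparisons.

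Ncoa7 has an interferon-induced form, so interferon response genes were set beside it. Of 20 such genes 17 were measured, and the list shifted most between Vhl and Pbrm1 mutants, where 11 rose and 0 fell with a median of 0.45 (4.71% of all genes rose), while Ncoa7 differed by -0.02 ± 0.08 (95% interval -0.18 to 0.14, limma adjusted p = 0.93). Without the 3 arrays with high adipocyte markers the count was 7. Oasl2, Ifit1 and Usp18, all induced by interferon, were 2.25-, 2.05- and 2.01-fold higher in Vhl than in Pbrm1 mutants (adjusted p = 2.2e-06, 2.7e-05 and 5.4e-06). Against wild type 6 of 17 rose in Vhl mutants and 4 fell in Pbrm1 mutants, while 1, Bst2, fell in double mutants. Among all genes 2.04% rose in Vhl mutants, 2.45% fell in Pbrm1 mutants and 5.56% fell in double mutants. The 1 of 17 in double mutants is thus near the share of all genes. The count of 6 was 2 without wild-type replicate 1 or 3, 3 without wild-type replicate 4 or Vhl mutant replicate 1 or 3, and the count of 4 was 0 without wild-type replicates 1 and 2. In double against Vhl mutants 7 fell, as did 2.55% of all genes. The macrophage and endothelial markers described above were high in Vhl mutants too, and their part in these counts was not tested.

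For the pathways of Meak7 and Oxr1 the counts were small outside the double mutants. Of 17 measured genes of mTOR and its lysosomal scaffold, 3 fell in double mutants against wild type and 0 were called in Vhl or Pbrm1 mutants. Those 3 were Lamtor4, a scaffold subunit (-0.39 ± 0.07, limma adjusted p = 0.0011), the kinase Mtor (-0.29 ± 0.06, adjusted p = 0.0049) and the GTPase Rragd (-0.28 ± 0.09, adjusted p = 0.042, lost in 10 of 30 alternatives). Of 14 measured antioxidant enzymes, 8 fell and 0 rose in double mutants, 1 fell in Vhl mutants, and 1 rose and 1 fell in Pbrm1 mutants against wild type. Among all genes 5.56% fell in double mutants and 1.79% in Vhl mutants, while 1.59% rose and 2.45% fell in Pbrm1 mutants. The calls in single mutants, Txn2 lower in Vhl mutants and Txn1 higher and Sod1 lower in Pbrm1 mutants, were lost in 9, 10 and 13 of 30 alternatives. Gpx4, the peroxidase that repairs membrane lipids, showed the largest of these, -0.37 ± 0.07 in double mutants (adjusted p = 0.00094). Oxr1 itself differed by 0.05 ± 0.09 there, and Meak7 by -0.14 ± 0.09.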

How the data were processed

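Total RNA was extracted with Trizol and labelled as biotinylated cRNA, per the labels' protocols. Per the submitters' processing notes, the authors used Affymetrix Expression Console 1.4 and RMA to make the deposited log2 values. This background-corrects, equalises and summarises probes, which can compress differences between arrays. How far it did so here was not tested. The table holds 41345 probe sets for 16 arrays, and 0 columns of values were left unused. The platform annotation gives 1 symbol to 23521 probe sets, several to 1814 and lists none for 16010. Of the 23521, 23328 matched RefSeq (GRCm38.p6) by Entrez ID. Where a gene had several probe sets (1082 genes), the brightest by mean stood for it, for 22180 genes in all. Symbols follow RefSeq, and the build of the array is not given in the sources used here, so no gene spans are printed.

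The members and lists were chosen with earlier results of these data known. Genes were named by rule: the members, up to 4 called genes per list and comparison, 3 measured neighbours on either side of Tldc2, and the 6 most and 4 least correlated genes. Atp6v1a, Atp6v0a4 and the lesser V-ATPase subunits in double mutants were added after values were seen, and cell markers were described by counts with up to 3 named.

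One model with 4 groups was fitted with limma 3.58.1 in R 4.3.3 (lmFit, duplicateCorrelation with the description number as a random block, estimated correlation 0.0838, eBayes with trend). Calls needed an adjusted p under 0.05 (Benjamini-Hochberg, over all genes). The fit weights double mutant replicate 4, which alone carries its number, more than the others, so fitted differences can deviate slightly from differences of means. The scripts were tested on simulated data. Alternatives were no block, the replicate number as a block, arrays averaged per description number, double mutant replicates 2 and 3 averaged, probe sets averaged within each gene, quantile normalization, centring, leaving out dim genes, no trend, array weights, only the groups compared, and leaving out each array. Leaving out 3 sets of arrays was chosen after seeing the data. Python 3.11.15 with numpy 2.4.6, pandas 2.3.3 and matplotlib 3.10.9 made the tables and figures. Precision is limited by the number of arrays, with a median SE of 0.11 for a log2 difference between single mutants and wild type.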

Additional observations from a re-analysis of the deposited data

Results flagged for a closer look

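Tbc1d24 had 1 array far from the rest of its group on 2 occasions. In Vhl mutants replicate 1 read 5.20 while the other arrays read 5.38 to 5.41, and its gap to the nearest array was 0.838 of the group's range. In wild-type mice replicate 3 read 5.84 while the others read 5.51 to 5.56, a gap of 0.846 of the range, and both gaps exceed the critical value of Dixon's test for 4 samples. Of 20 groups over the 5 genes these 2 passed the limit, and chance passes it in about 1 in 20 groups.

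The interferon response gene Rsad2 had an interaction of -0.63 ± 0.11 on the log2 scale (limma adjusted p = 0.0036, and 0.095 with arrays averaged per description number). It averaged 6.77 in double mutants, 7.50 in Vhl mutants and 6.82 in wild-type mice. The intercalated cell marker Rhcg had an interaction of -0.50 ± 0.12 (adjusted p = 0.025), so it was lower in double mutants than the sum of both single effects gives. This call was lost in 7 of 30 alternatives, among them leaving out double mutant replicate 4 (0.054) or Vhl mutant replicate 2 (0.056).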

How the results depend on the processing

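Over 30 alternatives, 0 of 836 refitted tests of Meak7, Ncoa7, Oxr1 and Tbc1d24 were called, with a lowest adjusted p of 0.078. In 11 of their differences the sign changed under at least 1 alternative, none above 0.12 as reported. Of 7 Tldc2 differences, those for double and Vhl mutants against Pbrm1 mutants, Pbrm1 mutants against wild type (0.15) and the interaction (-0.28) moved by more than the spread between arrays, all without Pbrm1 mutant replicates 3 and 4. Replicate numbers are shared by the groups, but same-numbered arrays did not deviate together (correlations -0.0603 to 0.059). With the replicate block Tldc2 differed by -1.67 in double and -1.54 in Vhl mutants from wild type, and V-ATPase subunits lower in Vhl mutants numbered 5. Double mutant replicates 2 and 3 share a description, but no arrays were identical. Pairs of arrays within a group were also correlated over all genes after the group mean was subtracted. Outside the double mutants, pairs sharing a description number gave r = -0.199 to -0.103 and other pairs -0.506 to -0.3. Double mutant replicate 3 gave -0.507 and -0.515 with replicates 1 and 2, whose number it shares, and -0.07 with replicate 4. The description-number block, the weight of replicate 4 and the averaging per number follow the labels as given.

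The count of all genes called moved more. With arrays averaged per description number it was 246 for Vhl mutants against wild type (851 as reported), 274 for Pbrm1 mutants against wild type (895), 1729 for double mutants against wild type (2706), 710 for double against Vhl mutants (1408), 1398 for double against Pbrm1 mutants (2260), 916 for Vhl against Pbrm1 mutants (1656) and 99 for the interaction (583). This setting leaves fewer values per group. It is also the setting that would apply if a number marks an animal, which the labels do not say. The interaction gave 884 with no block and 337 with no trend, and the cause was not tested. Without the 3 arrays with high adipocyte markers the counts were 564, 501, 830 and 303 for Vhl and Pbrm1 mutants against wild type, double against Vhl mutants and the interaction. Without Pbrm1 mutant replicates 3 and 4 they were 877 for Vhl mutants against wild type, 349 for Pbrm1 mutants against wild type, 1394 and 982 for double and Vhl mutants against Pbrm1 mutants and 300 for the interaction. Without wild-type replicates 1 and 2 they were 369 and 512 for Vhl and Pbrm1 mutants against wild type, 1682 for double against Vhl mutants, 2529 and 1880 for double and Vhl mutants against Pbrm1 mutants, and 290 for the interaction. Leaving out each array gave 545 to 851 for Vhl mutants against wild type (the lowest when wild-type replicate 1 is dropped, and 564 when Vhl mutant replicate 3 is dropped), 623 to 1003 for Pbrm1 mutants against wild type, 2039 to 2939 for double mutants against wild type, 1089 to 1556 for double against Vhl mutants, 1792 to 2431 for double against Pbrm1 mutants, 1329 to 1756 for Vhl against Pbrm1 mutants and 422 to 692 for the interaction. Of the fits of other named genes, 242 lost a call, 5 gained one and 4035 did neither.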
